A study of Mus musculus with 15 samples.

Results

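The chromatin of 10 cytokine receptor genes was examined in EL4 cells, a murine T lymphoblast line derived from a C57BL/6N lymphoma. The genes were chosen by name and are Il2ra, Il2rb, Il4ra, Il7r, Il6ra, Ifngr1, Il12rb2, Il1rl1, Il18r1 and Il21r, 10 of 49554 genes in the RefSeq table on the chromosomes used. All cells were untreated and came from 1 line, so no condition or second line was compared. ChIP-seq for H3K4me3, H3K9ac, H3K27ac, H3K36me2 and H3K27me3 and ATAC-seq were available as 12 lists of called intervals, with 2 replicates per assay. The methods name them technical replicates, so their agreement covers technical spread only. Each interval is a start and an end without a score, so the depth behind it is unknown and no test per gene was possible. A call here means an interval in both replicates. Beside each count stands the share of 17274 protein-coding genes with the same call, as a background. A population of cells was measured, and an interval present in few cells cannot be told apart from a weak interval in all cells.

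Cytokine receptors are membrane proteins that, after binding a secreted cytokine, pass the signal on through kinases of the JAK family and transcription factors of the STAT family, or through MyD88 for the receptors of the IL-1 family. In T cells they decide which cytokines can be sensed, and several are switched on only after activation or in a given helper subset. H3K4me3 and H3K9ac mark active promoters, H3K27ac marks active promoters and enhancers, ATAC-seq marks accessible DNA, H3K36me2 covers transcribed and intergenic euchromatin, and H3K27me3 is deposited by the Polycomb complex PRC2 at silent genes.

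The lists held between 17519 intervals (ATAC-seq, replicate 1) and 46015 intervals (H3K27me3, replicate 1). As a check of the cell type, the promoters of 5 of 5 T lineage markers with a listed start (Cd3e, Lck, Tcf7, Bcl11b, Cd3g) had H3K4me3, H3K9ac and H3K27ac in both replicates, and those of the B lineage markers Cd79a and Pax5 had none of them. Of the myeloid markers, Itgam and Lyz2 lacked H3K4me3 and H3K9ac. H3K27ac was absent at Itgam and was called at Lyz2 in replicate 1 alone. By contrast, Spi1, for which no start is listed, carried H3K4me3, H3K9ac, H3K27ac and ATAC-seq at an end of its span. Of the markers of other tissues, Neurod1, Alb and Hoxd13 lacked all 3 marks and Pax6 had H3K4me3 alone.

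A promoter was the window from 3 kb upstream to 2 kb downstream of each RefSeq start. For Il2rb no start is listed, and both ends of its span were examined with the same window. None of the 12 lists had an interval there, so its calls are the same for either strand. The 250 bases before the start are shown for 6 genes, since H3K4me3 was more frequent at promoters rich in CG dinucleotides over all coding genes and some members departed from this. Each CG is in capitals. The first 4 sequences belong to genes with promoter H3K4me3 and the last 2 to genes without it. The sequences are those of RefSeq, GRCm38.p6, written 5′ to 3′ on the strand of the gene.
Il6ra, chr3:89913197-89913446, minus strand: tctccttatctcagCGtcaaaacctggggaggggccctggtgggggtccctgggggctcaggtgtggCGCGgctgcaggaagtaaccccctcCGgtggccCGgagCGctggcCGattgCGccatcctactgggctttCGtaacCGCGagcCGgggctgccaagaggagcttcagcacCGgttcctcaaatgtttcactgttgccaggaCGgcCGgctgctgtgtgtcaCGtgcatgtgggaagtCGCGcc
Il4ra, chr7:125552021-125552270, plus strand: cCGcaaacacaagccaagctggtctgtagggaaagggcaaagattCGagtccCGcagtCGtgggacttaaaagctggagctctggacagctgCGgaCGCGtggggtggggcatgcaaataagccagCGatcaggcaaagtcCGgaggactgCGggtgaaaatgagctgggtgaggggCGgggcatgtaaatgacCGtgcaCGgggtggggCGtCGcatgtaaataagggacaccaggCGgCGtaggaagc
Ifngr1, chr10:19591699-19591948, plus strand: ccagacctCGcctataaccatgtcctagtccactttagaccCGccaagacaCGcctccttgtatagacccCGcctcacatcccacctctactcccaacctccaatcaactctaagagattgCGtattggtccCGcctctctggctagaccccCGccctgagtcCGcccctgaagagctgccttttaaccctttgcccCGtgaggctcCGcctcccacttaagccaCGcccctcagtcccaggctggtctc
Il7r, chr15:9529877-9530126, minus strand: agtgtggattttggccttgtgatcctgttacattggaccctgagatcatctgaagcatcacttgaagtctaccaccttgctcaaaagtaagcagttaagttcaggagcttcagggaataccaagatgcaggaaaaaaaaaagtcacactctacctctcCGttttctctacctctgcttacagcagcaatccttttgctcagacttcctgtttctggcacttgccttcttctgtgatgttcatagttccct
Il12rb2, chr6:67376189-67376438, minus strand: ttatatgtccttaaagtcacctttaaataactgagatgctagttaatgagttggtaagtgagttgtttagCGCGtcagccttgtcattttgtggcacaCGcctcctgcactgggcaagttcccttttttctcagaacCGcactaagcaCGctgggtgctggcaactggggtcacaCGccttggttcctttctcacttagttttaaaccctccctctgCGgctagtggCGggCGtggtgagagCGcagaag
Il2ra, chr2:11642542-11642791, plus strand: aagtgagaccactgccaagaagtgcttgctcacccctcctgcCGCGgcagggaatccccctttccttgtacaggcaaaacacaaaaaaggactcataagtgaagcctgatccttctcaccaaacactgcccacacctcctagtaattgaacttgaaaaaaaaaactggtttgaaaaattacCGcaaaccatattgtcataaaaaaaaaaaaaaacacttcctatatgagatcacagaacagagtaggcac

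The number of CG dinucleotides in these 250 bases was 18 for Il6ra, 17 for Il4ra, 11 for Ifngr1 and 10 for Il12rb2, and it was 3 for Il2ra and 1 for Il7r. Among the members not shown, Il21r had 4, the 3 starts of Il18r1 had 3, 7 and 6, and the 2 starts of Il1rl1 had 0 and 3. The median over 32619 RefSeq starts was 6. Of the coding genes with at least 10 CG at a start, 71.5% had promoter H3K4me3, against 38.7% of those with 5 to 9 and 8.97% of those with up to 4. Il7r thus belonged to the 8.97% of CG-poor promoters with the mark, and Il12rb2 to the CG-rich ones without it. The letters GGGCGG, searched on both strands, occur in 33.0% of the starts, 2 times before Ifngr1 and once before Il4ra, Il21r and the downstream start of Il1rl1. GGAAGT occurs in 19.8% of the starts, and was found before Il6ra at 2 places and once before Il7r, Il2ra, the upstream start of Il1rl1 and 2 starts of Il18r1. TTCNNNGAA occurs in 7.05% of the starts, and was found once before Il7r and Il12rb2 and at 2 places before the most downstream start of Il18r1. GGGCGG contains a CG, and GGAAGT and TTCNNNGAA shared no base in these windows.

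H3K4me3 marked the promoters of 4 of the 10 genes, Ifngr1, Il6ra, Il4ra and Il7r (47.0% of coding genes). H3K9ac marked the same 4 (46.4%), and H3K27ac marked these and Il18r1 (46.6%). ATAC-seq intervals were called in both replicates at 3 promoters, Ifngr1, Il6ra and Il4ra (42.6%), and at Il7r in replicate 2 alone, which makes 4 in either replicate (45.1%). H3K36me2 reached 6 promoters, those of Il6ra, Il7r, Ifngr1, Il18r1, Il1rl1 and Il2ra (26.7%), and no further member had it in either replicate (40.1%). The full set of 3 active marks, each in both replicates, was thus present at 4 promoters (45.9%). H3K27me3 was in both replicates at 0 promoters (10.1%), and in replicate 1 alone at Il12rb2 (17.0% of coding genes in either replicate). At 5 promoters (Il2ra, Il2rb, Il12rb2, Il1rl1 and Il21r) none of H3K4me3, H3K9ac and H3K27ac was called in any replicate (51.9%). For H3K4me3, H3K9ac and H3K27ac the counts of members were therefore near the background. The larger share of members with H3K36me2 was not tested.

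**Figure D1:**
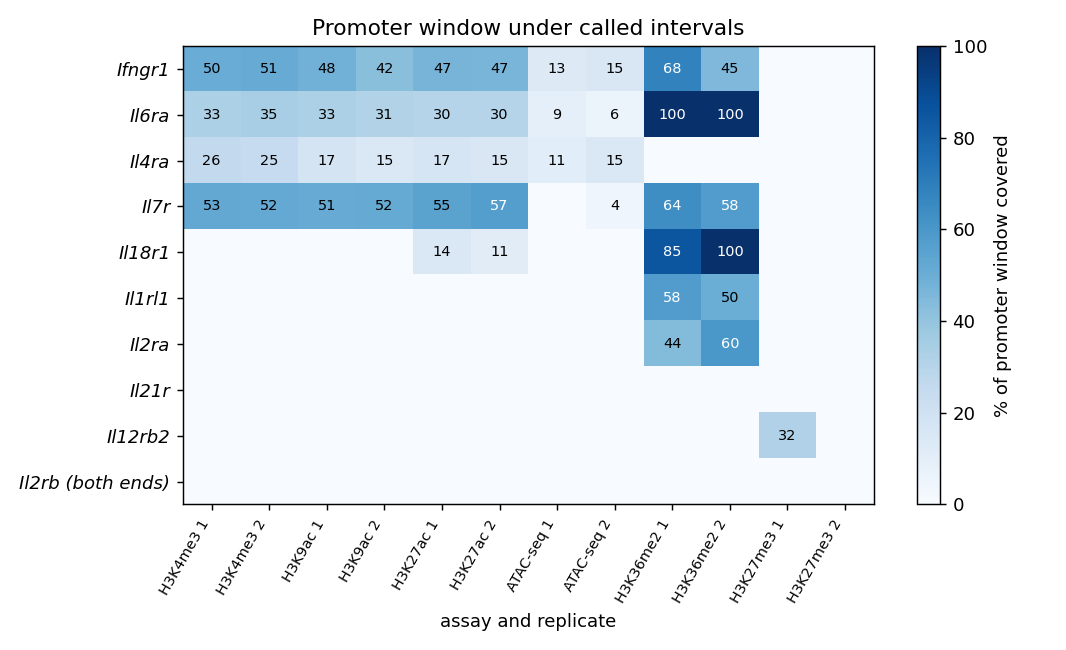
Share of the promoter window (3 kb upstream to 2 kb downstream of the RefSeq starts) under called intervals, in percent, for each gene (rows) and each of the 12 lists (columns, replicates 1 and 2). Empty cells are 0; Ifngr1, Il6ra, Il4ra and Il7r hold all H3K4me3 and H3K9ac intervals, and the only H3K27me3 value is 31.8% in replicate 1 at Il12rb2.

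Ifngr1 encodes the ligand-binding chain of the receptor for interferon gamma and lies on chromosome 10 from 19591949 to 19610229. H3K4me3 covered 50.4% of its promoter window in replicate 1 and 50.9% in replicate 2, against medians of 38.1% and 37.7% over the coding genes with the mark. The H3K4me3 interval ran from -0.52 to 3.87 kb of the start in replicate 1 and from -0.55 to 3.84 kb in replicate 2, and a second one followed to 5.17 and 5.26 kb. H3K27ac left out a short stretch before the start, from -0.26 to -0.07 kb in replicate 1 and from -0.22 to -0.07 kb in replicate 2. The ATAC-seq intervals, with 636 and 751 bp, spanned this stretch in both replicates. H3K27ac went on downstream to 8.11 and 8.02 kb, further than H3K4me3.

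Il6ra encodes the chain that binds IL-6 and lies on chromosome 3 from 89869324 to 89913196. Its H3K4me3 interval had 1652 bp in replicate 1 and 1732 bp in replicate 2, its H3K9ac interval 1649 and 1550 bp, and its H3K27ac interval 1501 and 1518 bp, all around the start. ATAC-seq intervals of 441 and 295 bp lay over the start. H3K36me2 covered 100% of the promoter window in both replicates, so that here the broad mark ran without a break under the active marks.

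Il4ra, on chromosome 7 from 125552271 to 125579474, encodes the chain that the receptors for IL-4 and IL-13 have in common. It had the narrowest of the 4 marked promoters, with H3K4me3 intervals of 1295 and 1239 bp and H3K27ac intervals of 845 and 757 bp. The promoter was accessible, with ATAC-seq intervals of 538 and 742 bp. No H3K36me2 interval reached the window in either replicate. An H3K27me3 interval lay upstream in both replicates, from -18.67 to -10.87 kb and from -18.07 to -8.67 kb, and stopped before the promoter.

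Il7r encodes the IL-7 receptor alpha chain, on which the survival of naive T cells and thymocytes depends, and lies on chromosome 15 from 9506159 to 9529941. H3K4me3 covered 52.6% and 52.1% of its promoter window, the largest shares among the members. The H3K4me3 interval had 4029 bp in replicate 1 and was split into 3500 and 352 bp in replicate 2. H3K27ac covered 54.8% and 56.9%, also more than at the other members. No ATAC-seq interval was called there in replicate 1, and in replicate 2 the interval had 208 bp, from -0.17 to 0.04 kb.

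Il18r1, on chromosome 1 from 40465552 to 40500854, encodes the IL-18 binding chain. Its promoter window held H3K27ac in 3 short intervals of 308, 201 and 258 bp in replicate 1 and in 2 of 289 and 326 bp in replicate 2, and no H3K4me3 or H3K9ac. The H3K4me3 of this gene lay inside it, from 3.98 to 5.02 kb and from 4.00 to 5.01 kb of the start. H3K27ac intervals of 2601 and 2529 bp surrounded it, from 3.12 to 5.72 kb and from 3.23 to 5.76 kb. An ATAC-seq interval of 246 bp was called at this place in replicate 2 alone.

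A similar arrangement was found at Il2ra and Il21r, where the start had no active mark and a site inside the gene carried H3K4me3, H3K9ac and H3K27ac. Of all H3K27ac sites away from promoter windows, 47.2% touched H3K4me3 and 47.7% touched H3K9ac. These are shares of sites, and the share of coding genes with such an arrangement was not counted. Whether transcripts start at these internal sites was not tested. Il2ra, on chromosome 2 from 11642792 to 11693194, encodes CD25, the alpha chain that gives the IL-2 receptor its high affinity. Its internal site had H3K4me3 intervals of 838 and 809 bp, H3K9ac intervals of 511 and 577 bp and H3K27ac intervals of 561 and 595 bp, from 10.65 to 11.24 kb of the start when the H3K27ac intervals of both replicates are merged. ATAC-seq intervals of 219 and 200 bp lay at the same place. At the Il2ra start itself only H3K36me2 was found, in an interval from -1.79 to 0.41 kb in replicate 1 and from -2.59 to 0.41 kb in replicate 2, which ended just inside the gene.

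Il21r, on chromosome 7 from 125603252 to 125634397, encodes the receptor chain for IL-21. No interval of any list touched its promoter window. Its internal site lay near the far end of the gene, with an H3K27ac interval from 26.26 to 28.11 kb in replicate 1 and from 26.27 to 28.08 kb in replicate 2. H3K4me3 intervals of 1096 and 1041 bp and ATAC-seq intervals of 530 and 435 bp lay within it. Past the end of the gene, at 32.02 to 32.49 kb, a second ATAC-seq site touched H3K4me3 in both replicates and no H3K27ac.

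Il1rl1, Il12rb2 and Il2rb had no active mark at their starts or inside their spans in both replicates. Il1rl1 encodes ST2, the receptor for IL-33, and its listed starts on chromosome 1 are 40429570 and 40439629. Its promoter windows carried H3K36me2 alone, over 57.7% of their joint length in replicate 1 and 50.0% in replicate 2. The window of the downstream start was reached in replicate 1 alone. Il12rb2, on chromosome 6 from 67285986 to 67376293, encodes the IL-12 receptor chain that signals through STAT4. In replicate 1, H3K27me3 covered 31.8% of its promoter window, with an interval from -5.41 to -1.41 kb, and in replicate 2 it covered none of it. The intervals of both replicates met only further upstream, where they ended at -12.61 kb in each. Il2rb encodes the beta chain shared by the IL-2 and IL-15 receptors and lies on chromosome 15 from 78479256 to 78511621. Inside its span, 1 H3K27me3 interval of 5399 bp was called in replicate 1 and no interval of any list in replicate 2.

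**Figure D2:**
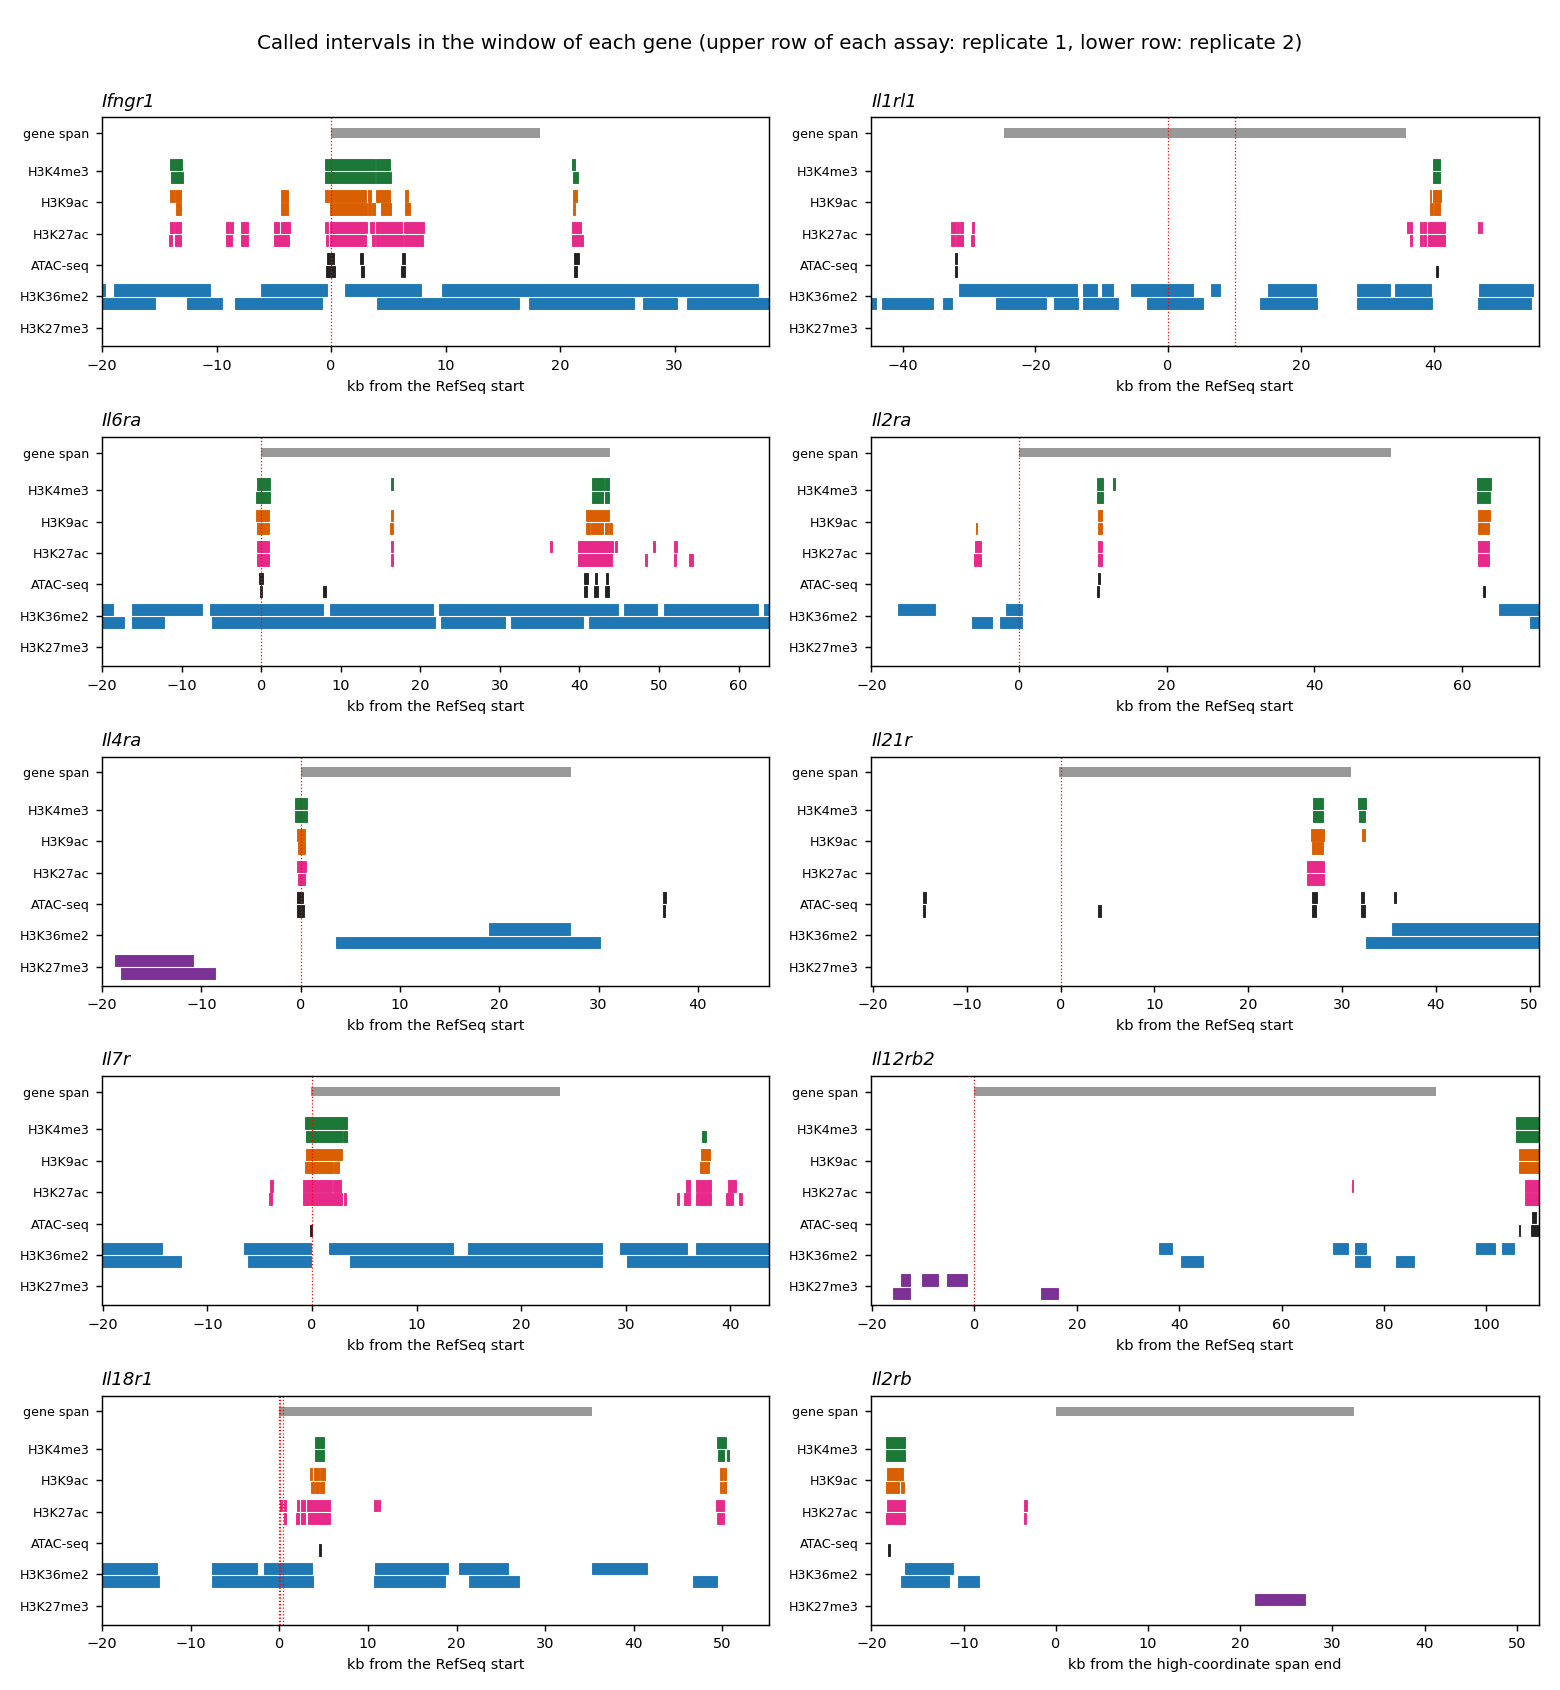
Called intervals in the gene span plus 20 kb on each side, for the 10 genes, against the distance in kb from the most upstream listed RefSeq start (dotted lines mark all listed starts; for Il2rb the distance is from the high-coordinate end of the span). Bars are intervals, with replicate 1 above replicate 2 for each assay, and the grey bar is the gene span; at Il2ra, Il21r and Il18r1 H3K4me3 bars lie inside the gene and beyond its far end, and none lies at the start.

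To compare promoter marks with sites away from promoters, the windows of the gene span plus 20 kb on each side were searched. H3K27ac intervals of both replicates were merged into sites, of which 36 were touched by both replicates. Of these, 7 touched a promoter window of a member, 5 touched only the promoter window or an end of another gene, and 24 were distal. The 5 sites belonged to Il18rap, Il15ra, the long noncoding Gm46811 inside Il6ra, Serbp1 and C1qtnf6. The windows of Il1rl1 and Il18r1 overlap, as do those of Il4ra and Il21r, and sites they share were counted once.

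At least 1 distal H3K27ac site was found for 8 of the 10 genes (23.0% of coding genes), with 0 at Il4ra and Il12rb2. At least 3 were found for 3 genes (6.40%), Ifngr1 with 9, Il1rl1 with 5 and Il7r with 4. Il2ra, Il6ra and Il18r1 had 2 each and Il2rb and Il21r had 1 each. Distal ATAC-seq sites were found for 5 genes (17.0%), with 3 at Ifngr1 and Il21r and 1 at Il2ra, Il1rl1 and Il4ra, where the site of Il4ra is that also counted for Il21r. The windows of the members had a median of 73.8 kb, against 57.2 kb for coding genes. Per 100 kb of window, the members had 3.17 distal H3K27ac sites and 1.06 distal ATAC-seq sites, against 0.607 and 0.278 for coding genes. Without Ifngr1, which holds 9 of the 24 sites, there were 2.15 distal H3K27ac and 0.715 distal ATAC-seq sites per 100 kb. Some neighbouring H3K27ac sites lay close together, and 16 remained in place of 24 when intervals up to 1 kb apart were merged. The counts need therefore not be numbers of separate elements. Those for coding genes were made without this merging too.

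Distal H3K27ac was not limited to the genes with a marked promoter. Of the 6 genes without promoter H3K4me3, 5 had a distal H3K27ac site (14.8% of coding genes without promoter H3K4me3), and of the 4 genes with it, 3 did (32.3% of coding genes with promoter H3K4me3). The number per 100 kb was 1.80 for the former, against 0.337 for coding genes without the mark. For the latter it was 5.49, against 0.991 for coding genes with the mark, and 2.79 without Ifngr1. No test was made of these differences, since 10 genes with overlapping windows are not replicates.

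**Figure D3:**
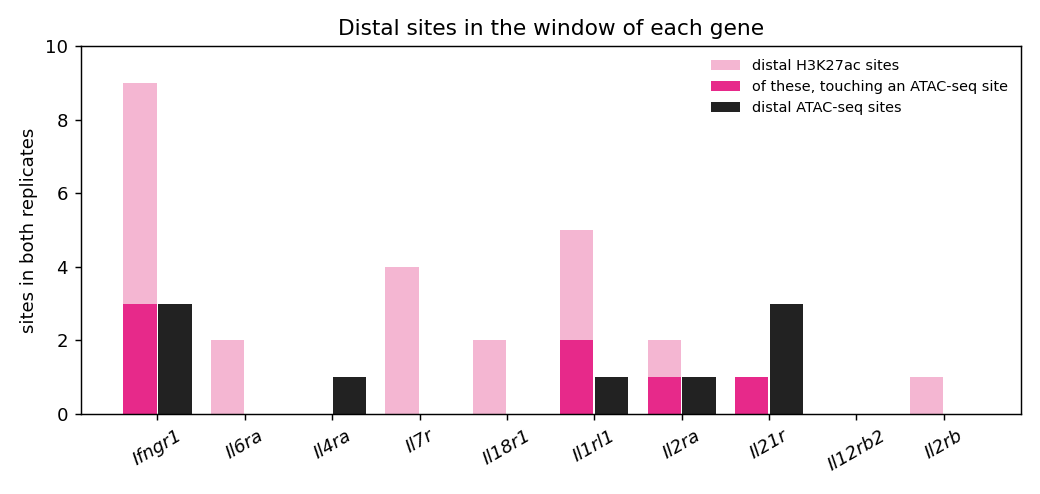
Number of distal H3K27ac sites (pink), of those touching an ATAC-seq site (dark pink) and of distal ATAC-seq sites (black) in the window of each gene, counting sites found in both replicates. Ifngr1 has 9 distal H3K27ac sites, 3 of them touching an ATAC-seq site, and Il12rb2 has none of either kind. Sites in overlapping windows are shown for both genes.

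Of the 24 distal H3K27ac sites, 7 touched an ATAC-seq site (32.5% of all distal H3K27ac sites), 8 an H3K4me3 site (47.2%) and 11 an H3K9ac site (47.7%). H3K36me2 touched 12 in both replicates (47.8%), and H3K27me3 touched 0 in either replicate (0.358%). The percentages are over 10887 distal sites, and the differences from them were not tested. The sites had between 286 and 2637 bp, with a median of 625 bp against 736 bp over all distal sites. In the other direction, 6 of the 8 distal ATAC-seq sites touched an H3K27ac site (73.8%).

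At Ifngr1 the distal sites lay on both sides of the promoter. Some adjoined it and count as distal only because they touch no promoter window. The H3K27ac site from 3.42 to 3.86 kb touched the H3K4me3 interval of the promoter in both replicates. The ATAC-seq site from 2.54 to 2.88 kb lay within the H3K27ac site of the promoter. A pair of H3K27ac sites on chromosome 10 (19577793 to 19578234 and 19578283 to 19578882), from -14.16 to -13.07 kb of the start, touched H3K4me3 in both replicates and no ATAC-seq interval. Between -9.17 and -3.62 kb, 3 more sites carried H3K27ac without H3K4me3, and the nearest to the start (19586978 to 19588324) also carried H3K9ac. Inside the gene, the sites from 3.91 to 6.25 kb and from 6.34 to 8.11 kb met at an ATAC-seq site of 418 bp. Beyond the gene, a site from 21.02 to 22.02 kb (19612970 to 19613966) touched H3K4me3, H3K9ac, ATAC-seq and H3K36me2, each in both replicates.

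At Il7r, 3 of the 4 distal H3K27ac sites lay beyond the far end of the gene, between 35.60 and 40.54 kb from the start. The widest, on chromosome 15 from 9491694 to 9493216, touched H3K9ac in both replicates and H3K4me3 in replicate 2 alone. The fourth lay upstream, from -4.06 to -3.76 kb. None of the 4 touched an ATAC-seq interval in either replicate, and H3K36me2 touched all of them in both.

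At Il1rl1, the span begins at 40404864 on chromosome 1, upstream of both listed starts, and no start is listed at that end. A group of 3 H3K27ac sites lay before this end, from 40396839 to 40400307, which is -32.73 to -29.26 kb of the upstream listed start. An ATAC-seq site of 342 bp (40397450 to 40397791) touched 2 of them in both replicates, and neither H3K4me3 nor H3K9ac was called there. The other 2 sites in this window were those inside Il18r1. Il1rl1, with no active mark at its listed starts, thus had acetylated accessible DNA upstream of its span. Its neighbour Il18r1 had acetylated DNA with H3K4me3 inside the gene.

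At Il2ra, a second distal site lay upstream, from -6.03 to -5.09 kb (chromosome 2 from 11636762 to 11637698). It had H3K27ac intervals of 890 and 902 bp, H3K9ac in replicate 2 alone, and no H3K4me3 or ATAC-seq. At Il6ra, the distal sites were small, with 292 bp inside the gene at 16.27 to 16.56 kb and 387 bp beyond it. H3K4me3 inside a gene was not limited to genes with an unmarked start. A much wider H3K27ac interval, 4404 bp in replicate 1 and 4262 bp in replicate 2, ran from 39.76 to 44.17 kb over the far end of Il6ra. It held H3K4me3 and H3K9ac intervals in both replicates and 3 ATAC-seq intervals in each. It was not counted as distal, since it also touches an end of Gm46811, for which no start is listed. At Il2rb, the 1 site had 286 and 235 bp and lay on the high-coordinate side of the span (78514791 to 78515076), just outside the 3 kb taken as promoter. The H3K4me3 intervals of 2065 and 2028 bp further out in this window belong to C1qtnf6.

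H3K36me2 covered at least 50% of the gene span in both replicates at 4 genes (25.3% of coding genes). These were Il6ra with 96.3% and 94.5% in replicates 1 and 2 (95.4% ± 1.29, SD, n = 2), Il7r with 86.8% and 84.3% (85.5% ± 1.78, SD, n = 2), Ifngr1 with 83.3% and 73.5% (78.4% ± 6.96, SD, n = 2) and Il1rl1 with 64.6% and 65.3% (65.0% ± 0.469, SD, n = 2). Il18r1 was just under this limit, with 49.6% and 49.4%. Il4ra had 30.1% in replicate 1 and 87.0% in replicate 2, so that its place in the order depends on the replicate. Il12rb2 had 8.41% and 11.5%, Il2ra had 0.809% in both replicates, and Il2rb and Il21r had 0%. Without Il4ra, the gap between Il18r1 and Il12rb2 was larger than the spread between replicates of either gene. Il4ra lay inside this gap in replicate 1 and above Il18r1 in replicate 2, so the genes did not fall into 2 separate groups. Of the 4 genes with promoter H3K4me3, 3 thus had at least 50% under H3K36me2 in both replicates, and Il4ra in replicate 2 alone. So did Il1rl1 in both, which lacked all active marks at its listed starts. The share among coding genes with promoter H3K4me3 was not counted.

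H3K27me3 covered at least 50% of the span in both replicates at 0 of the 10 genes (5.81%). Within the spans it was found at Il2rb, with 16.7% in replicate 1 and 0% in replicate 2, and at Il12rb2, with 0% and 3.76%. In neither gene did the replicates share a base of it. The spans of the other 8 genes had none.

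**Figure D4:**
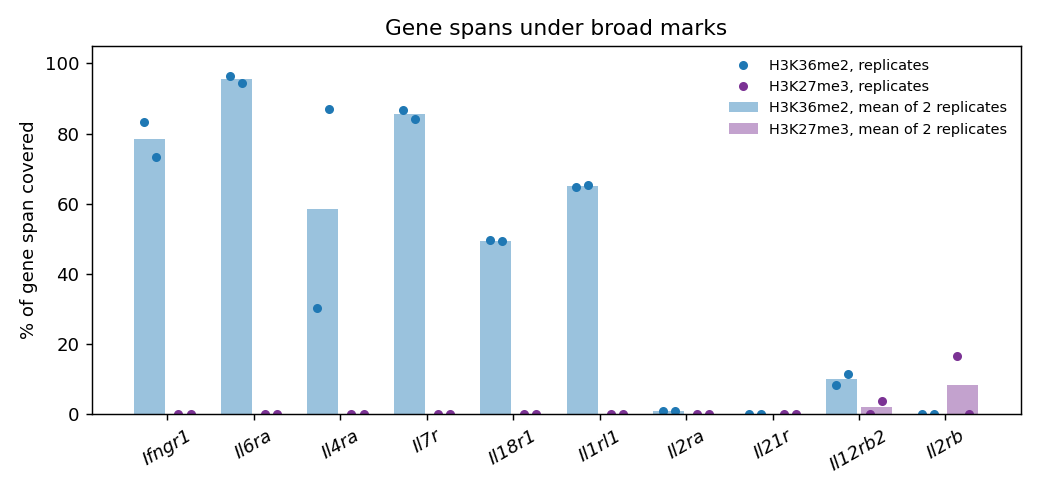
Percent of the gene span covered by H3K36me2 (blue) and H3K27me3 (purple) for each gene, where bars are the means of 2 replicates and points the replicates. The values of H3K36me2 range from 0 at Il2rb and Il21r to 95.4% at Il6ra, and the replicates are furthest apart at Il4ra.

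Il1rl1 and Il18r1 belong to a cluster of genes of the IL-1 receptor family on chromosome 1, and the broad marks changed within it. The spans of Il1r2, Il1r1 and Il1rl2, which encode the decoy receptor for IL-1, its signalling receptor and the receptor for IL-36, were under H3K27me3. The share was 67.9% and 83.2% for Il1r2, 86.3% and 88.0% for Il1r1 and 93.6% and 95.8% for Il1rl2. The last H3K27me3 interval ended 31.5 kb before the span of Il1rl1 in replicate 1 and 27.3 kb before it in replicate 2. No H3K27me3 was found over Il1rl1, Il18r1 and Il18rap, the gene of the second IL-18 receptor chain, and it began again 4.29 and 3.09 kb after Il18rap. Over these 3 genes H3K36me2 covered 64.6% and 65.3%, 49.6% and 49.4%, and 51.2% and 68.0%, whereas it covered at most 3.63% of Il1r2, Il1r1 and Il1rl2. In each of the 6 genes the values of the 2 marks were further apart than the replicates of either mark.

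**Figure D5:**
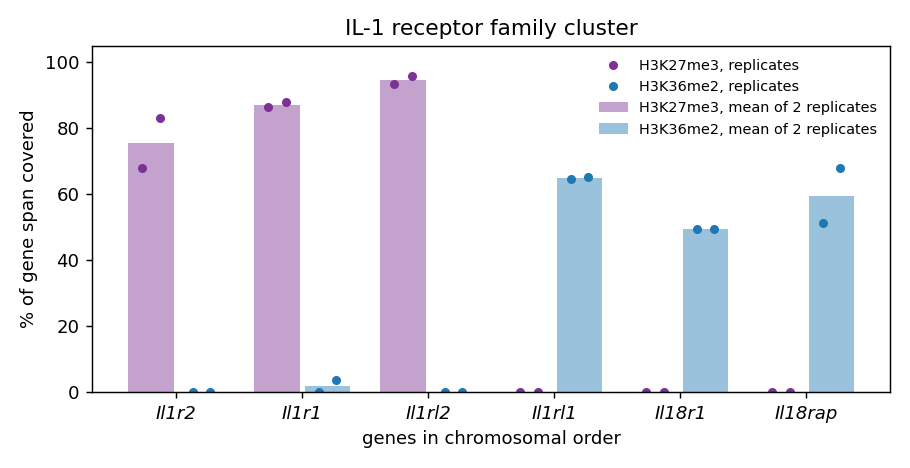
Percent of the gene span covered by H3K27me3 (purple) and H3K36me2 (blue) for the 6 genes of the IL-1 receptor family in their order along chromosome 1, where bars are the means of 2 replicates and points the replicates. H3K27me3 covers 67.9% to 95.8% of the first 3 genes and 0% of the last 3, and H3K36me2 shows the opposite.

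For comparison, 37 other receptor chains and 15 signalling genes were counted in the same way, with both span ends for genes without a listed start. Of the 37 other chains, 17 had promoter H3K4me3 (47.0% of coding genes), 17 H3K9ac (46.4%), 17 H3K27ac (46.6%) and 15 ATAC-seq (42.6%) in both replicates. H3K27me3 was in both replicates at 12 of the 37 (10.1%), and H3K36me2 at 10 (26.7%). These shares cover only genes with a listed start. Among the 29 with a listed start, H3K4me3, H3K9ac and H3K27ac were at 13 each, ATAC-seq at 11, H3K27me3 at 9 and H3K36me2 at 5. The counts of the active marks were thus near the background. That of H3K36me2 was near it only with the genes examined at both ends. The members had H3K27me3 at 0 and H3K36me2 at 6 of 10 promoters, a difference that was not tested. Of the 15 signalling genes, 14 had H3K4me3, H3K9ac and H3K27ac (45.9% of coding genes) and 13 had ATAC-seq (42.6%). The exception was Stat4, the transcription factor downstream of the IL-12 receptor, which had H3K27me3 in both replicates and none of the active marks.

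The chains with which the members pair differed from them in several receptors. Il2rg, the common gamma chain of the receptors for IL-2, IL-4, IL-7 and IL-21, had H3K4me3, H3K9ac, H3K27ac and ATAC-seq in both replicates, although it lies on chromosome X, whose reads the methods describe as discarded. Il1rap, the partner of ST2, Il6st, which encodes gp130, the partner of Il6ra, and Ifngr2 had the same 4 calls. Il12rb1, the partner of Il12rb2, had them at an end of its span, since no start is listed. Il18rap had H3K4me3, H3K9ac and H3K27ac and no ATAC-seq. For the IL-2, IL-12, IL-21, IL-33 and IL-18 receptors, the partner chain named here (Il2rg, Il12rb1, Il1rap or Il18rap) was therefore marked by H3K4me3 at its promoter or span end. The chain or chains among the members were not. These include Il2rb, which is itself shared by the IL-2 and IL-15 receptors. Il4ra, Il7r, Il6ra and Ifngr1 were marked, as were the partners examined for them (Il2rg, Il6st and Ifngr2). The partner of Il4ra in the IL-13 receptor was not examined.

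The likeness of promoters was described by the mean absolute difference, over the 12 lists, in the share of the window covered. Among 38 genes compared with each member, the nearest to Il2ra was Il1rl1, with 1.98 percentage points, and the reverse held as well. Both had promoter intervals of H3K36me2 alone, so the lists of the other assays added 0 to this distance. A small distance can thus come from lists without an interval in either gene. Il4ra was nearest to Il1rap (1.95 points), Il7r and Ifngr1 were nearest to each other (6.14 points), and Il18r1 was nearest to Il11ra1 (4.07 points). Il12rb2 was nearest to Ghr (2.55 points), and almost as near to Csf2ra (2.65 points), which had no interval in any list. The nearest to Il6ra was Ifngr1, at 16.1 points, the largest distance to a nearest gene among the members. Il2rb and Il21r, with no interval in any list, were at 0 points from 5 genes each.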

How the data were processed

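The authors aligned the reads with STAR v2.5 to GRCm38, kept unique alignments and used Picard against PCR amplification bias. Intervals of ATAC-seq and of the narrow marks (H3K27ac, H3K9ac, H3K4me3) were called by macs2, and those of the broad marks by Epic, with the input as control for the ChIP-seq. The deposited lists give the chromosome, start and end of each interval and no score, so neither depth nor peak strength enters a value. Of 15 samples, 12 have a list, and the input and 2 RNA-seq samples were not used here.

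Positions were compared with RefSeq genes of GRCm38.p6, with starts and strands from the RefSeq promoter table, which lists a start for 9 of the 10 members. Genes without a listed start were examined at both ends. A touch was an overlap of at least 1 bp. Sites were overlapping or adjoining intervals of both replicates, merged, and touched by both. Distal sites touched no promoter window of any gene. The 10 genes and the lists were chosen with earlier results of these data known. The rule for named genes was all members, neighbours whose promoters touch counted intervals, partner chains and, for each member, the gene with the most similar promoter. The sequence motifs, the IL-1 receptor cluster and Stat4 were chosen after their values were seen. Counting was checked on simulated intervals against bedtools 2.31.1, and 0 of 4 checks differed. Python 3.11.15, numpy 2.4.6 and pandas 2.3.3 were used.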

Additional observations from a re-analysis of the deposited data

How the results depend on the processing

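Of 74 alternative values of 11 counts, 66 were within 1.5 times of those reported. The number of promoters with H3K27me3 was 1 in place of 0 when either replicate was enough, and 0 to 1 with single replicates. Windows of 50 kb on each side gave 42 distal H3K27ac and 13 distal ATAC-seq sites in place of 24 and 8, as more sequence was searched, and sites of either replicate gave 13 distal ATAC-seq sites. Merging intervals up to 1 kb apart left 16 distal H3K27ac sites in place of 24. The number of distal H3K27ac sites touching an ATAC-seq site fell from 7 to 4 with this merging and to 3 with a required overlap of 200 bp. H3K36me2 touched 8 gene spans by any overlap, against 4 covered by at least 50%. Taking the 5' end of the gene span as the start, which was added after the data were examined, left the 6 promoter counts within 1.5 times. No paired analysis was possible because the results come from no test. Without read counts, a missing interval was not detectable as distinct from a weak signal.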
